A study of Mus musculus with 12 samples.

Results

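The circadian clock was followed through 10 of its genes by messenger RNA level in primary hepatocytes of mouse kept in culture, the parenchymal cells of liver. The genes were taken by symbol from a given list, namely Arntl (also called Bmal1), Clock, Per1, Per2, Per3, Cry1, Cry2, Nr1d1, Nr1d2 and Dbp. Each symbol matched 1 of the 55487 gene identifiers in the count files, and all 10 genes passed the filter on low counts that left 13535 genes to be tested. The 12 libraries came from 4 groups with 3 replicates each. Control cells received neither a scavenger nor FAC. FAC cells were given only FAC. The labels leave that abbreviation unexplained, and in work on cellular iron it usually stands for ferric ammonium citrate. The Lip-1+FAC group was given liproxstatin-1, which scavenges lipid reactive oxygen species, on culture day 2 and FAC afterwards, and the MT+FAC group was given Mito-TEMPO, which scavenges mitochondrial reactive oxygen species, on the same day and FAC afterwards. Cells with a scavenger and no FAC were not analysed here. The sources used here give no strain, dose, length of treatment or hour of harvest, and do not say whether replicates came from separate animals, so that p-values measure the spread between these samples, which may be technical.

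The clock is a feedback loop of transcription that runs in nearly every cell. CLOCK and ARNTL form a dimer that binds E-box sequences and activates the Per and Cry genes, whose proteins in turn inhibit the dimer. A second loop is made by the nuclear receptors NR1D1 and NR1D2 (REV-ERB alpha and beta), which are also activated by the dimer and which repress Arntl through ROR response elements (ROREs). DBP is a PAR bZIP transcription factor activated by the dimer that passes the rhythm on to liver genes through D-box sequences. In the liver these genes vary strongly over the day, and Per1 is also an immediate target of cAMP and glucocorticoid signals. Each group had 3 libraries, and no hour of harvest is given. A change in the level of a rhythm and a change in its timing therefore cannot be told apart.

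The promoters of 5 members are shown because the 250 bases before their start sites hold the clock motifs searched. Per1, Cry1, Cry2 and Nr1d1 kept their calls against FAC with either scavenger in every alternative run, and Per3 did not. Each line gives the 250 bases before a RefSeq start site, 5′ to 3′ on the gene's strand, from the GRCm38.p6 promoter table, with motif matches in capitals. The matches are an E-box in Per1, an E-box and a variant E-box in Cry1, a variant E-box in Cry2 and in Nr1d1 and a pair of D-boxes in Per3. Coordinates are chr11:69098699-69098948 on the plus strand for Per1, chr10:85185055-85185304 on the minus strand for Cry1, chr2:92434070-92434319 on the minus strand for Cry2, chr11:98775378-98775627 on the minus strand for Nr1d1 and chr4:151044666-151044915 on the minus strand for Per3.
Per1: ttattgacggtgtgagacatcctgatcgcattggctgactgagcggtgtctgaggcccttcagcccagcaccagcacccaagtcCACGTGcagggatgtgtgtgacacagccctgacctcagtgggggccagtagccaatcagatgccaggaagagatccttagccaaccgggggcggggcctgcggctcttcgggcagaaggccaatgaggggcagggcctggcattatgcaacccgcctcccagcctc
Cry1: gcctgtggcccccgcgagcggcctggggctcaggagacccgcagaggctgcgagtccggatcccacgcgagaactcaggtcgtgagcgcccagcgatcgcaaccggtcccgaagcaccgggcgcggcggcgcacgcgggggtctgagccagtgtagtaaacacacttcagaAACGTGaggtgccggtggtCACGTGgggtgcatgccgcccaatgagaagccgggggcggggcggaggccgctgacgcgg
Cry2: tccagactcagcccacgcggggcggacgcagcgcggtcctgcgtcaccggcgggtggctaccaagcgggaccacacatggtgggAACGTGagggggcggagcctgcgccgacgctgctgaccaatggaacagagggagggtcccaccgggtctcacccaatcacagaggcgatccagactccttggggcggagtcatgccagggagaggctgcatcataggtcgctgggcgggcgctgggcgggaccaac
Nr1d1: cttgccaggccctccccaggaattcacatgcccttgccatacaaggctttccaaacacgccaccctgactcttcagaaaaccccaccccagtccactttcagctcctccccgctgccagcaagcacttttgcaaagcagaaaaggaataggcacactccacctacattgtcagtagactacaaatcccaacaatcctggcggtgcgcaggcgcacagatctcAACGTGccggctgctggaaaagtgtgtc
Per3: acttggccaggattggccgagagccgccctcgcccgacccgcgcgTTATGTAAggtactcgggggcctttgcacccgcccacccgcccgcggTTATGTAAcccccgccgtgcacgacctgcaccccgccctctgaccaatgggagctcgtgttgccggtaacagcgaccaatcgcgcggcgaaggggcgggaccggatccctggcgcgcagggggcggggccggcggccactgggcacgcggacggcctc

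Motifs were searched on both strands in windows of 300 bases, 250 before and 50 after a start site. The table held 13 windows for 9 members and none for Per2, which was not searched. The E-box CACGTG was found in 2 of the 13 member windows, of Per1 and Cry1, and in 7.15% of all 32851 windows. The variant E-box CACGTT lay in 3 of the 13 member windows, of Cry1, Cry2 and Nr1d1, and in 4.68% of all windows. In Cry1 it began 79 bases before the start site and the E-box 60 bases before it, without overlap. The D-box, searched as TTATGTAA, TTACGTAA, TTACATAA or TTATATAA, was found in Per3 only among the members and in 1.59% of all windows. The copies in Per3 began 205 and 158 bases before the start. The RORE core TAGGTCA or TGGGTCA was found in a window of Arntl, behind the start site, and in 6.45% of all windows. The CRE TGACGTCA was in 0 member windows and in 1.79% of all windows. Letters that match are a description and not evidence of binding, and Clock, Nr1d2 and Dbp had no match in these windows.

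Between 22991598 and 31683376 reads were counted on genes in 11 libraries, and 52529278 in FAC replicate 2, whose file is marked as combined. The hepatocyte markers Alb, Apoa1, Ttr, Serpina1a, Hnf4a, Cps1, Asgr1 and Tat were all present, with summed levels of 15990 to 17160 CPM (counts per 1000000 counted reads, scaled by TMM library factors) in control and FAC and 12730 to 14440 CPM in the scavenger groups. Alb makes up most of this sum. From control to FAC the means of Alb, Apoa1, Ttr, Serpina1a and Asgr1 were higher (Serpina1a 209 and 263 CPM) and those of Cps1, Tat and Hnf4a lower (Cps1 1694 and 711 CPM). With liproxstatin-1 and Mito-TEMPO Serpina1a averaged 103.4 and 100.6 CPM and Cps1 1034 and 1059 CPM. Of the marker lists of other liver cells, the summed cholangiocyte list was higher in FAC (98.3 to 123 CPM) than in control (58.5 to 69.0 CPM) and stood at 104 to 145 CPM in the scavenger groups. Its member Sox9 averaged 17.4 CPM in control, 53.4 CPM in FAC, and 12.01 and 15.05 CPM with liproxstatin-1 and Mito-TEMPO. Spp1, which made up most of that sum in the scavenger groups, averaged 40.7 CPM in control, 43.6 CPM in FAC, and 101.3 and 102.5 CPM with a scavenger. The stellate list was at 6.74 to 10.8 CPM in control and 16.6 to 17.3 CPM in FAC, and at 4.98 to 6.15 and 5.997 to 7.09 CPM with liproxstatin-1 and Mito-TEMPO. Most of it was Reln, which averaged 7.45 CPM in control and 16.04 CPM in FAC, and 4.53 and 5.23 CPM with liproxstatin-1 and Mito-TEMPO. Lrat, Pdgfrb and Rgs5 were lower in FAC than in control, each under 1 CPM, and Ngfr was at 0 in all libraries. Des and Hand2 were higher in FAC, also under 1 CPM (Des 0.054 and 0.148 CPM, Hand2 0.026 and 0.045 CPM in control and FAC). The endothelial list summed to 34.2 to 37.0 CPM in control and FAC and, without overlap, to 26.6 to 30.8 CPM in the scavenger groups. Most of it was Stab2, which averaged 28.2 and 26.5 CPM in control and FAC, and 17.9 and 19.2 CPM with liproxstatin-1 and Mito-TEMPO. Pecam1, Kdr and Tek went the other way, with higher means in both scavenger groups than in control and FAC. Pecam1 averaged 2.77, 2.63, 3.19 and 3.05 CPM in the same order. The means of Lyve1, Cdh5 and Clec4g did not separate these groups. Kupffer and lymphocyte lists summed to at most 13.8 and 0.43 CPM. In bulk RNA, fewer cells of a type and less RNA per cell cannot be told apart, and the part of these cells in the results below was not tested.

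Clock genes differed strongly in level when scaled to exon length. This length takes all annotated exons of a gene together, not those of 1 transcript, and the order between genes depends on it. By CPM alone Clock, with 13727 bases of exons, stood above Arntl, with 7523, in control (58.9 and 36.1 CPM). In control cells Cry2 stood at 15.2 ± 0.80 CPM per kilobase of exons (SD, n = 3), Cry1 at 15.2 ± 1.38 and Nr1d2 at 14.2 ± 0.16, and neighbours in this order overlapped. Below them followed Arntl at 4.80 ± 0.35, Nr1d1 at 4.74 ± 0.12, Clock at 4.29 ± 0.23, Per1 at 3.94 ± 0.78 and Per2 at 2.95 ± 0.33 CPM per kilobase. In this stretch the libraries of Arntl and Nr1d1, of Clock and Per1, and of Per1 and Per2 overlapped, and those of Nr1d1 and Clock did not. Per3, at 0.42 ± 0.079, and Dbp, at 0.24 ± 0.058 CPM per kilobase, were lowest and did not overlap on the unstranded counts. The order of these 2 depends on the count column: with both strand columns added, an alternative chosen after seeing the data, Dbp stood at 0.72 ± 0.10 and Per3 at 0.38 ± 0.074 CPM per kilobase in control, and Dbp was above Per3 with no overlap in control and FAC and overlapped it in both scavenger groups. In FAC cells Cry1 led, at 24.0 ± 1.70 CPM per kilobase, with Nr1d2 beside it at 22.4 ± 3.28 and overlapping libraries. With a scavenger Nr1d2 led the order alone, at 27.5 ± 1.46 with liproxstatin-1 and 21.7 ± 1.51 with Mito-TEMPO, where Cry1 stood at 12.3 ± 0.59 and 12.3 ± 0.83. Nr1d1 stayed below Nr1d2 in every library.

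**Figure D1:**
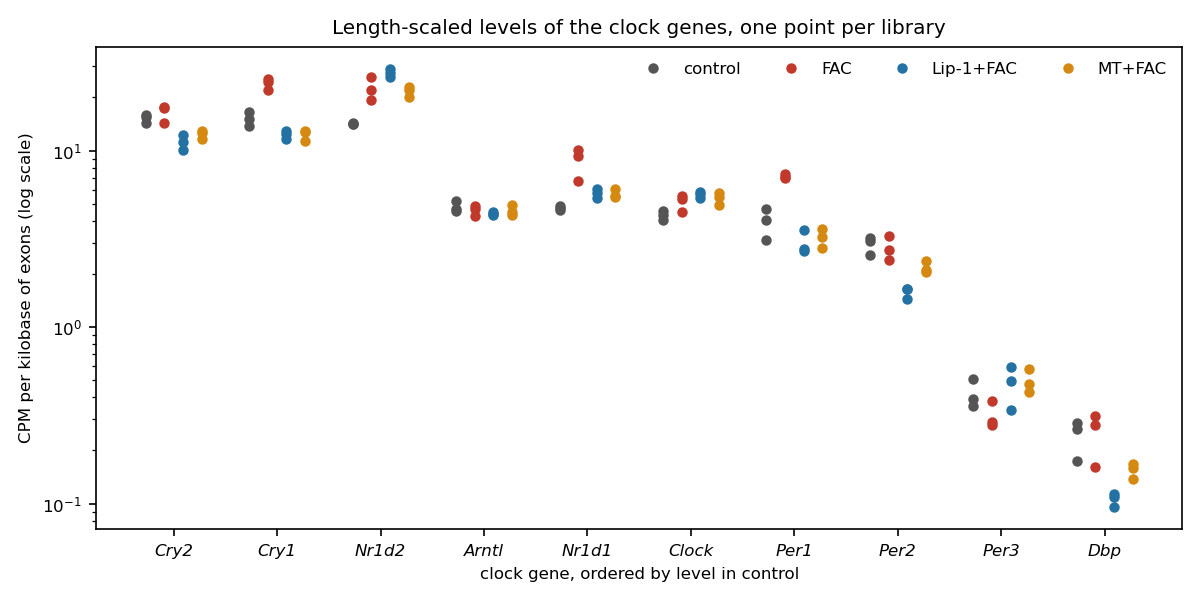
Length-scaled level (CPM per kilobase of exons, log axis) of each clock gene, ordered by the control mean, with one point per library and a colour per group. Cry2, Cry1 and Nr1d2 lie highest in control, while Per3 and Dbp lie lowest in all 4 groups on these unstranded counts, which hold fewer reads of Dbp than the strand columns added together.

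In FAC against control 5 of the 10 genes rose and 0 fell, at an edgeR adjusted p under 0.05. They were Per1, Cry1, Nr1d1, Nr1d2 and Clock, and 4 of them (all but Clock) kept the call in every alternative run. Arntl, Per2, Per3, Cry2 and Dbp were not called. Over all genes tested 36.6% were called, 17.5% higher and 19.1% lower. The median log2 fold change was 0.18 over the members and -0.01 over all genes tested.

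With liproxstatin-1 before FAC, 8 of the 10 genes differed from FAC alone, 6 lower and 2 higher. Per1, Cry1, Per2, Cry2, Nr1d1 and Dbp were lower and Nr1d2 and Per3 higher, while Arntl and Clock were not called. Over all genes 39.9% were called, 20.7% higher and 19.2% lower. The median log2 fold change was -0.58 over the members and 0.001 over all genes. With Mito-TEMPO, 6 members were called against FAC, 5 lower (Per1, Cry1, Nr1d1, Cry2 and Per2) and 1 higher (Per3). Here the share over all genes was 40.9%, 21.2% higher and 19.7% lower, and the median was -0.39 over the members and -0.001 over all genes. These comparisons share the FAC libraries with each other and with FAC against control, so that a high or low FAC library moves all of them.

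Between the scavengers 0 of the 10 members were called in MT+FAC against Lip-1+FAC by edgeR, and 2, Per2 and Nr1d2, had an unadjusted p under 0.05. DESeq2 called these 2. Over all genes 1.34% were called, 0.465% higher and 0.879% lower. Against control, Lip-1+FAC differed in 7 members, 2 higher (Nr1d2 and Clock) and 5 lower (Per2, Cry2, Cry1, Per1 and Dbp), where 30.2% of all genes were called, 15.4% higher and 14.8% lower. MT+FAC differed from control in 5 members, Nr1d2 and Clock higher and Per2, Cry2 and Cry1 lower, where 19.8% of all genes were called, 9.71% higher and 10.1% lower. Without control replicate 1 the number in MT+FAC was 2, and without MT+FAC replicate 3 it was 3. The number in Lip-1+FAC was 4 without control replicate 1 or without Lip-1+FAC replicate 2. In these comparisons with control FAC and a scavenger change together.

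**Figure D2:**
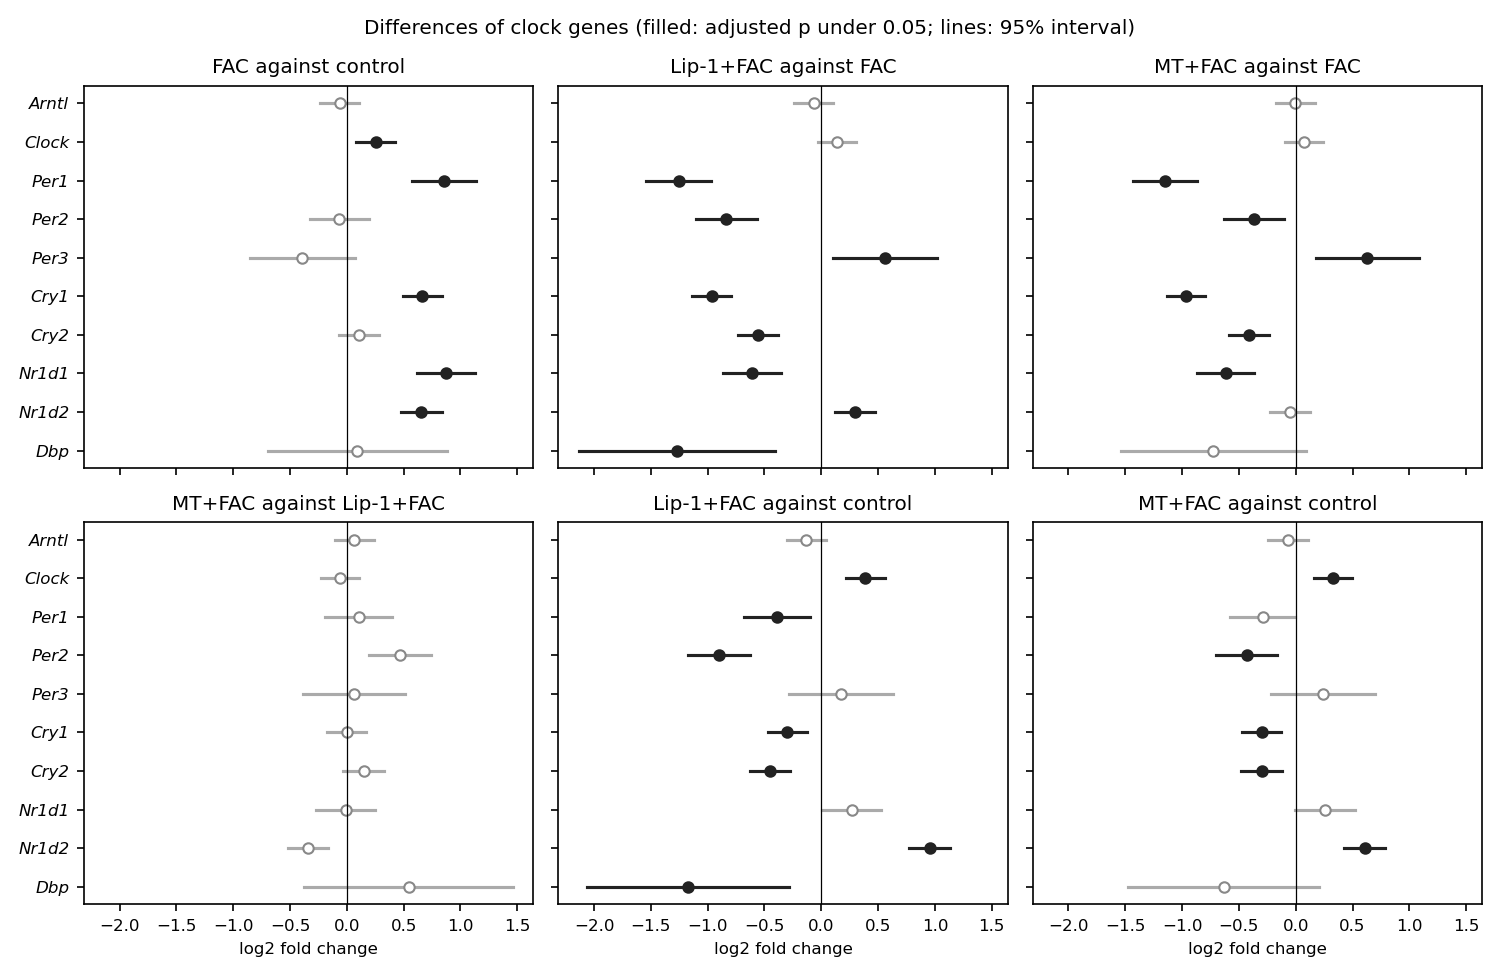
Log2 fold change of each clock gene in the 6 comparisons, with 95% intervals from the edgeR standard error, and filled points for genes with an adjusted p under 0.05. Per1, Cry1 and Nr1d1 lie right of 0 in FAC against control and left of 0 in both comparisons of a scavenger with FAC, while Arntl stays near 0 in every panel.

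The activators form the positive arm of the loop. Arntl (ENSMUSG00000055116, GRCm38 chromosome 7, 113207465 to 113314126) encodes the partner of CLOCK. Its levels were 39.0, 35.1 and 34.1 CPM in control, 36.4, 35.1 and 31.9 CPM in FAC, 33.5, 32.3 and 32.9 CPM with liproxstatin-1, and 32.5, 37.2 and 33.5 CPM with Mito-TEMPO. All groups overlapped except Lip-1+FAC, which lay just below control. The log2 fold change in FAC against control was -0.06 (95% interval -0.24 to 0.11, edgeR adjusted p = 0.583), and in the other 5 comparisons it lay between -0.13 and 0.06 with no call. Clock (ENSMUSG00000029238, chromosome 5, 76209868 to 76304792), which encodes the DNA-binding partner of ARNTL, stood at 62.1, 58.9 and 55.7 CPM in control and 76.1, 72.6 and 61.6 CPM in FAC. FAC replicate 3 fell within the control range. The fold change was 0.25 (SE 0.081, edgeR adjusted p = 0.0196) and the call was lost without control replicate 3 (0.215), without FAC replicate 1 (0.199) or without FAC replicate 2 (0.228).

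With a scavenger the values of Clock were 79.5, 73.6 and 78.1 CPM for liproxstatin-1 and 75.1, 67.9 and 79.1 CPM for Mito-TEMPO, all above the 3 control libraries. Against control these amounted to log2 fold changes of 0.39 (SE 0.081, edgeR adjusted p = 0.00136) and 0.33 (SE 0.081, edgeR adjusted p = 0.00801). Against FAC it was 0.14 (95% interval -0.03 to 0.30) and 0.08 (-0.09 to 0.24), with no call in either.

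**Figure D3:**
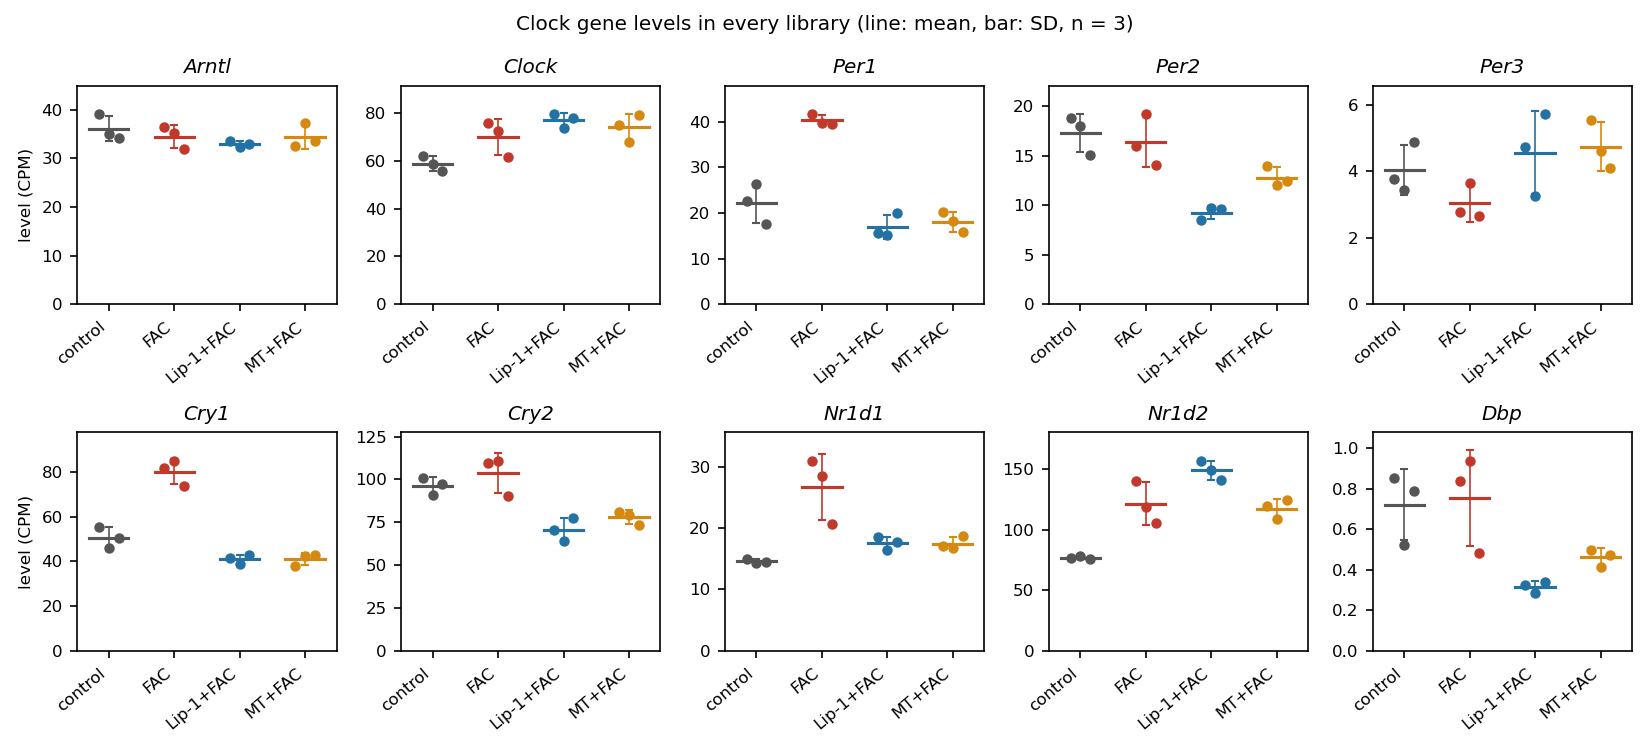
Level (CPM, axis from 0) of each clock gene in every library, with the group mean as a line and the SD as a bar (n = 3). Per1 and Cry1 in FAC lie above every library of the other 3 groups, and Nr1d2 lies above control in all 9 FAC-treated libraries.

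Per1 (ENSMUSG00000020893, chromosome 11, 69095217 to 69109960), a repressor of the CLOCK dimer whose promoter is shown above, stood at 22.6, 26.4 and 17.6 CPM in control. In FAC its values were 41.5, 39.8 and 39.5 CPM, all above the control libraries. In Lip-1+FAC they were 15.7, 15.1 and 19.99, and in MT+FAC 20.2, 18.3 and 15.8 CPM, so that both scavenger groups lay below all FAC libraries and overlapped control. The log2 fold change was 0.86 in FAC against control (SE 0.133, edgeR adjusted p = 8.84e-05). It was -1.25 in Lip-1+FAC against FAC (SE 0.135, edgeR adjusted p = 1.78e-06) and -1.15 in MT+FAC against FAC (SE 0.134, edgeR adjusted p = 5.11e-06). Against control Per1 changed by -0.39 in Lip-1+FAC (edgeR adjusted p = 0.0395), a call that was lost in 4 of the 6 fits that left out a library, such as without control replicate 2 (-0.245), and in the fit of only the compared libraries (edgeR adjusted p = 0.0912). In MT+FAC it stood at -0.29 against control, with no call.

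Per2 (ENSMUSG00000055866, chromosome 1, 91415982 to 91459324), a second repressor of the same family, was not called in FAC. Its levels were 18.7, 17.96 and 15.1 CPM in control and 15.99, 19.1 and 14.1 CPM in FAC, which overlapped. The log2 fold change was -0.06 (95% interval -0.33 to 0.20). In Lip-1+FAC the values of 8.47, 9.68 and 9.60 CPM lay below every library of the other groups. They differed by -0.83 from FAC (SE 0.129, edgeR adjusted p = 5.42e-05) and by -0.90 from control (SE 0.13, edgeR adjusted p = 4.43e-05). In MT+FAC the values were 13.9, 12.01 and 12.4 CPM, between those of Lip-1+FAC and FAC. The change against FAC was -0.37 (edgeR adjusted p = 0.0259), lost without FAC replicate 2 (-0.234) or without MT+FAC replicate 2 or 3 (-0.336 and -0.344). Against control it was -0.43 (edgeR adjusted p = 0.0219), lost without control replicate 1 (-0.367) or 2 (-0.400) and without MT+FAC replicate 2 (-0.384) or 3 (-0.410). MT+FAC exceeded Lip-1+FAC by 0.47 with no overlap (95% interval 0.19 to 0.74), but the edgeR adjusted p was 0.0847.

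Per3 (ENSMUSG00000028957, chromosome 4, 151003652 to 151044665) is the Period gene with D-boxes in its window. Its levels were 3.76, 3.45 and 4.89 CPM in control and 2.77, 3.66 and 2.66 CPM in FAC. In Lip-1+FAC it stood at 4.73, 3.25 and 5.71, and in MT+FAC at 5.53, 4.60 and 4.10 CPM, where MT+FAC did not overlap FAC and Lip-1+FAC did. The change against FAC was 0.56 with liproxstatin-1 (SE 0.218, edgeR adjusted p = 0.0477) and 0.63 with Mito-TEMPO (SE 0.216, edgeR adjusted p = 0.0265). Both calls were lost in fits that left out a library. The first was 0.379 without Lip-1+FAC replicate 3, 0.485 without FAC replicate 3, 0.503 without FAC replicate 1 and 0.540 without Lip-1+FAC replicate 1. It was also lost with only the compared libraries (edgeR adjusted p = 0.0696) and with upper quartile scaling (0.0503). The second was 0.499 without MT+FAC replicate 1, 0.550 without FAC replicate 3, 0.557 without FAC replicate 1 and 0.643 without MT+FAC replicate 2. FAC against control was -0.39 (edgeR adjusted p = 0.178).

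Cry1 (ENSMUSG00000020038, chromosome 10, 85131700 to 85185064) encodes a cryptochrome that inhibits the CLOCK dimer, and both E-box forms lie in its window. Its levels were 55.3, 46.1 and 50.4 CPM in control and 81.6, 84.9 and 73.8 CPM in FAC. In Lip-1+FAC they were 41.3, 39.0 and 42.9, and in MT+FAC 37.9, 42.5 and 42.9 CPM. The FAC libraries stood above all others, and both scavenger groups stood below all control libraries. The log2 fold change was 0.67 in FAC against control (SE 0.081, edgeR adjusted p = 5.2e-06). It was -0.97 in Lip-1+FAC against FAC (SE 0.081, edgeR adjusted p = 7.49e-08) and -0.96 in MT+FAC against FAC (SE 0.081, edgeR adjusted p = 1.1e-07). Against control it was -0.30 in each scavenger group. These calls were lost without control replicate 1 (-0.228 with liproxstatin-1 and -0.229 with Mito-TEMPO), without Lip-1+FAC replicate 2 (-0.260) and without MT+FAC replicate 1 (-0.249).

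Cry2 (ENSMUSG00000068742, chromosome 2, 92403646 to 92434043), the other cryptochrome, was not called in FAC against control, at 0.11 (95% interval -0.07 to 0.28). It stood at 100.7, 90.8 and 97.2 CPM in control and 109.8, 110.8 and 90.3 CPM in FAC. With liproxstatin-1 it stood at 70.3, 63.9 and 77.5 CPM and with Mito-TEMPO at 81.0, 79.5 and 73.7 CPM. Both scavenger groups lay below all FAC and all control libraries. The change against FAC was -0.56 (SE 0.084, edgeR adjusted p = 4.41e-05) with liproxstatin-1 and -0.41 (SE 0.084, edgeR adjusted p = 0.00082) with Mito-TEMPO. Against control it was -0.45 and -0.30. The latter call was lost without control replicate 1 (-0.265) or MT+FAC replicate 3 (-0.260). Of the exonic bases, 4.67% overlap D930015M05Rik on the other strand.

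The pair of REV-ERB genes rose together in FAC and moved apart with either scavenger. Against FAC both were called with liproxstatin-1, in opposite directions, and only Nr1d1 with Mito-TEMPO. Nr1d1 (ENSMUSG00000020889, chromosome 11, 98767932 to 98775333) stood at 14.99, 14.2 and 14.6 CPM in control and 31.0, 28.5 and 20.6 CPM in FAC. In Lip-1+FAC it stood at 18.5, 16.5 and 17.7, and in MT+FAC at 17.1, 16.7 and 18.6 CPM. Every FAC library lay above every other library, FAC replicate 3 by the least, and both scavenger groups lay above control. The log2 fold change in FAC against control was 0.87 (SE 0.122, edgeR adjusted p = 2.49e-05), and without FAC replicate 3 it was 1.02. It was -0.61 with liproxstatin-1 (SE 0.121, edgeR adjusted p = 0.00063) and -0.62 with Mito-TEMPO (SE 0.12, edgeR adjusted p = 0.000558), each against FAC. Against control the values of 0.27 and 0.26 were not called, with edgeR adjusted p-values of 0.116 and 0.157. Of the exonic bases, 8.55% overlap Thra on the other strand, whose reads cannot be told apart without strand. Thra fell from 2.66 CPM in control to 1.58 CPM in FAC, and summing the counts of both strands gave 0.88 for Nr1d1.

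Nr1d2 (ENSMUSG00000021775, chromosome 14, 18204054 to 18239127) stood at 76.8, 77.9 and 76.2 CPM in control and 140.3, 118 and 105 CPM in FAC. Its values were 156.8, 149.3 and 140.97 CPM with liproxstatin-1 and 119, 108 and 124 CPM with Mito-TEMPO. All 9 FAC-treated libraries lay above control, and Lip-1+FAC lay above FAC and above MT+FAC. The log2 fold change was 0.66 in FAC against control (SE 0.085, edgeR adjusted p = 1.26e-05) and a further 0.30 in Lip-1+FAC against FAC (SE 0.084, edgeR adjusted p = 0.00916). In MT+FAC it was -0.05 against FAC (95% interval -0.22 to 0.13) and 0.61 against control. MT+FAC against Lip-1+FAC gave -0.34 (95% interval -0.52 to -0.17) with an edgeR adjusted p of 0.0512, and was called by DESeq2 (adjusted p = 0.0139).

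Dbp (ENSMUSG00000059824, chromosome 7, 45705088 to 45710203), the output factor of the set, had low unstranded counts in these cultures. It had 14 to 20 counts per library in control, 12 to 49 in FAC, 8 or 9 with liproxstatin-1 and 11 to 16 with Mito-TEMPO, that is 0.52 to 0.85, 0.48 to 0.94, 0.29 to 0.34 and 0.42 to 0.50 CPM. Lip-1+FAC lay below all other groups. The change in Lip-1+FAC was -1.27 against FAC (SE 0.411, edgeR adjusted p = 0.0203) and -1.18 against control (SE 0.423, edgeR adjusted p = 0.0434). The first was lost without FAC replicate 2 (-1.06) and without Lip-1+FAC replicate 1 or 2 (-1.29 and -1.19), and with no filter on low counts (edgeR adjusted p = 0.0625). The second was lost in 5 of the 6 fits that left out a library, all but that without control replicate 2. It was also lost with no filter on low counts (edgeR adjusted p = 0.135), with only the compared libraries (0.0549) and by DESeq2 (adjusted p = 0.0559). In FAC against control it was 0.09 (95% interval -0.70 to 0.88). Of the exonic bases of Dbp, 18% overlap Sphk2, which stood at 32.5 CPM in control, and reads there cannot be given to 1 gene without strand. With the counts of both strand columns added, which can take in reads of Sphk2, Dbp had 52 to 64 counts in control, 52 to 136 in FAC, 23 to 47 in Lip-1+FAC and 37 to 57 in MT+FAC. On these counts its log2 fold change in Lip-1+FAC was -0.997 against FAC and -0.941 against control, with edgeR adjusted p-values of 0.00458 and 0.0106, and on the unstranded counts Sphk2 itself fell by 0.57 and 0.73 in these comparisons.

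Ratios between members within a library do not depend on the scaling of libraries. The log2 ratio of Nr1d1 to Arntl was -1.30 ± 0.076 in control (SD, n = 3), -0.39 ± 0.21 in FAC, -0.91 ± 0.056 with liproxstatin-1 and -0.98 ± 0.16 with Mito-TEMPO. The ratio of Per1 to Per2 was 0.35 ± 0.18, 1.31 ± 0.23, 0.86 ± 0.21 and 0.50 ± 0.13 in the same order, with every FAC library above control. Cry1 over Cry2 was -0.93 ± 0.059, -0.37 ± 0.070, -0.78 ± 0.069 and -0.93 ± 0.16. Nr1d1 over Nr1d2 was -2.40 ± 0.047 in control, -2.20 ± 0.15 in FAC, -3.09 ± 0.091 with liproxstatin-1 and -2.75 ± 0.055 with Mito-TEMPO, lowest in the scavenger groups. These ratios are descriptions with no test.

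**Figure D4:**
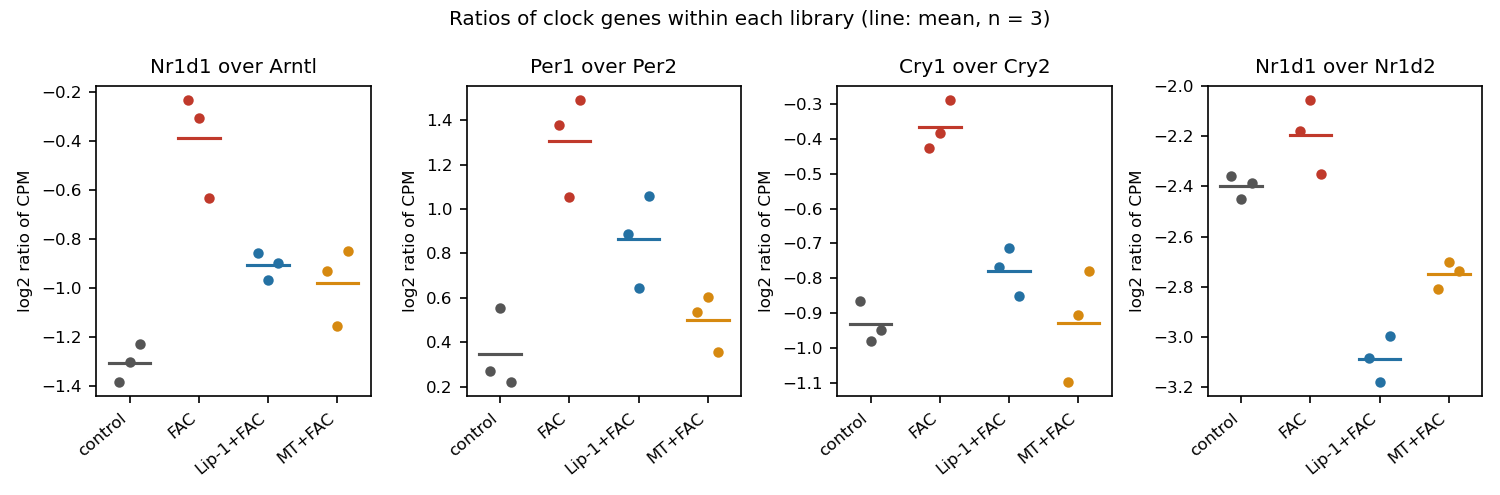
Log2 ratio of the CPM of clock gene pairs in each library, with the group mean as a line (n = 3). The mean ratios of Nr1d1 to Arntl, Per1 to Per2 and Cry1 to Cry2 are highest in FAC, and that of Nr1d1 to Nr1d2 is lowest in Lip-1+FAC. For Per1 to Per2 the libraries of FAC and Lip-1+FAC overlap (1.055 in FAC replicate 2 and 1.059 in Lip-1+FAC replicate 3).

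Other genes of the loops were described from a list of 12, of which 11 were tested and Rorb had no count. In FAC against control 4 rose and 2 fell, with a median log2 fold change of 0.07. The share called was 54.5% here, 54.5% in Lip-1+FAC against FAC and 63.6% in MT+FAC against FAC, beside 36.6%, 39.9% and 40.9% of all genes tested. Ciart, a further repressor of the CLOCK dimer, rose by 0.67 (SE 0.137), from 13.2 ± 2.36 to 20.9 ± 2.8 CPM (SD, n = 3), and Rora, an activator at ROREs, rose by 0.26 (SE 0.066). Hlf, a PAR bZIP relative of Dbp, changed by -1.34 (SE 0.157), and Arntl2, a paralogue of Arntl, by -0.76 (SE 0.22). In Lip-1+FAC against FAC 1 rose and 5 fell, with a median of -0.39. Ciart changed by -1.64 (SE 0.143), Npas2, a paralogue of Clock, by -0.78 (SE 0.176), and Nfil3, which opposes PAR bZIP factors at D-boxes, by -0.46 (SE 0.074), while Hlf rose by 0.85 (SE 0.159). In MT+FAC against FAC 1 rose and 6 fell, with a median of -0.25, Ciart at -1.24 (SE 0.139) and Hlf at 0.99 (SE 0.157). The highest edgeR adjusted p among these genes was 0.0111. Tef, the third PAR bZIP gene, was not called in any of the 6 comparisons.

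**Figure D5:**
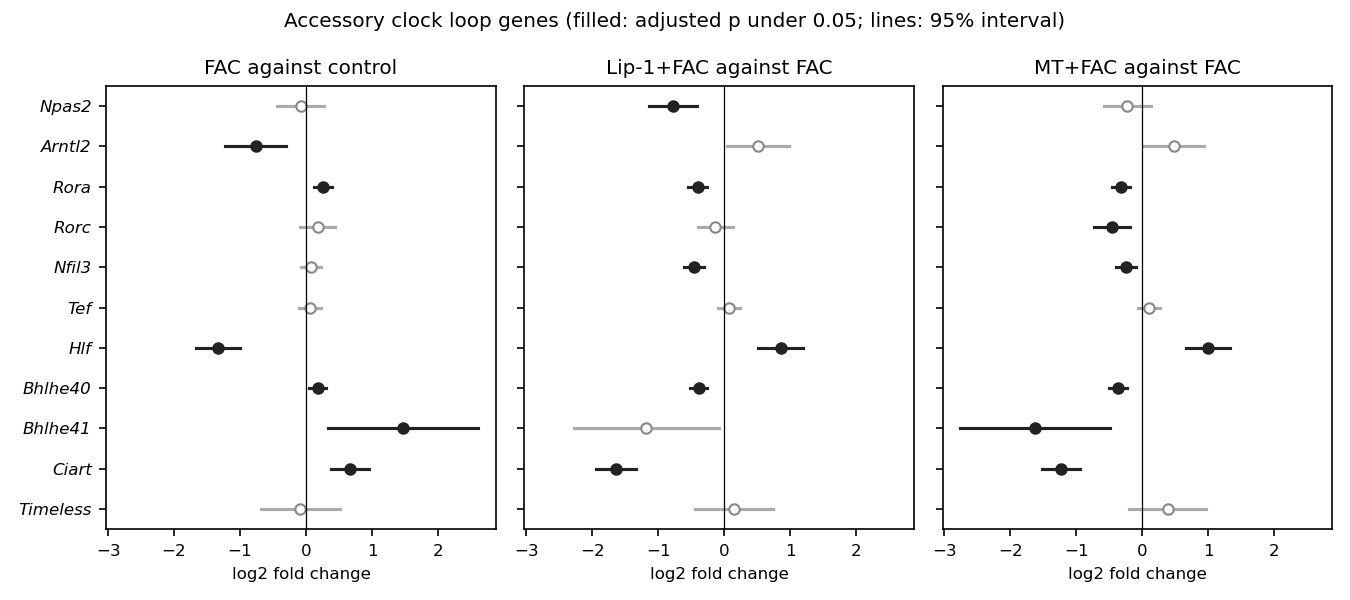
Log2 fold change of 11 accessory clock loop genes in 3 comparisons, with 95% intervals and filled points for an adjusted p under 0.05. Ciart lies right of 0 in FAC against control and left of 0 with either scavenger, and Hlf does the reverse.

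Genes tied to signals that act on Per genes were described from 2 lists. The signals themselves were not measured, and the lists also hold mediators such as Creb1 and the glucocorticoid receptor gene Nr3c1. Of 13 genes listed for cAMP, CREB or serum, 6 rose and 1 fell in FAC against control (median 0.23). In each comparison of a scavenger with FAC 4 rose and 8 fell (medians -0.47 and -0.54). The shares called were 53.8%, 92.3% and 92.3%, beside 36.6%, 39.9% and 40.9% of all genes. Egr1, an immediate early transcription factor, rose by 2.24 (SE 0.126), Fos by 1.43 (SE 0.0923) and Nr4a1 by 1.37 (SE 0.194) in FAC. Fos changed by -2.47 (SE 0.098) with liproxstatin-1 and -1.84 (SE 0.0938) with Mito-TEMPO, each against FAC. Of 10 genes listed for glucocorticoids, 4 rose and 3 fell in FAC (median 0.23). The phosphatase gene Dusp1 rose by 0.66 (SE 0.0587) and the metallothionein gene Mt1 by 0.78 (SE 0.153), while Tsc22d3 changed by -0.80 (SE 0.0734) and the tyrosine aminotransferase gene Tat by -0.88 (SE 0.138). Against FAC 9 of the 10 fell with liproxstatin-1 (median -0.73) and 7 with Mito-TEMPO (median -0.59), and 0 rose in either. Here the shares called were 70%, 90% and 70% in the same 3 comparisons. The highest edgeR adjusted p among the genes named from both lists was 0.00253. Mt1 also responds to metals, and several genes of both lists respond to other stresses.

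Output genes with a daily rhythm in liver went both ways. Of 26 listed genes, 25 were tested, and Cyp7a1 was too low. In FAC against control 8 rose and 7 fell, with a median of 0.02. The shares called were 60% in FAC against control, 64% in Lip-1+FAC against FAC and 60% in MT+FAC against FAC, where 36.6%, 39.9% and 40.9% of all genes were called. The vasopressin receptor gene Avpr1a rose by 1.33 (SE 0.133), and Fmo5, a flavin monooxygenase, Tfrc, the transferrin receptor, and Pck1, the gluconeogenic carboxykinase, changed by -1.42 (SE 0.0697), -1.42 (SE 0.116) and -1.21 (SE 0.174). In Lip-1+FAC against FAC 8 rose and 8 fell (median -0.09), with the glycogen synthase gene Gys2 at 1.42 (SE 0.203), Cyp2b10 at 1.26 (SE 0.0748), Avpr1a at -1.53 (SE 0.134) and Noct at -1.21 (SE 0.171). In MT+FAC against FAC 5 rose and 10 fell (median -0.32), with Cyp2b10 at 1.28, Gys2 at 1.27, Avpr1a at -1.24 and Pck1 at -1.03. The highest edgeR adjusted p among these output genes was 0.000466. Many of these genes also have regulators outside the clock.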

How the data were processed

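RNA of 12 hepatocyte libraries was measured by sequencing of amplified full-length cDNA, a kit that does not mark strand. Reads were aligned with STAR to GRCm38, per the submitters' processing notes; the version and annotation are not given in the sources used here. The deposited files hold counts per gene by the authors, unstranded and for each strand, and the unstranded counts were used. Reads given to no gene made up 18.83 to 24.19% of each file and were left out. Of 55487 identifiers, 55227 were named from GENCODE M21.

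Counts were fitted in R 4.3.3 with edgeR 4.0.16 (filterByExpr, TMM factors of 0.989 to 1.01, robust quasi-likelihood test, all 12 libraries), with Benjamini-Hochberg adjustment over 13535 genes and calls at 0.05. DESeq2 1.42.0 and other scalings, filters, columns and subsets of libraries were alternatives. On simulated counts for FAC against control (13282 genes, 200 of them moved by 1 on the log2 scale), 80.5% were recovered and 5.29% of calls were false. The members and lists were chosen with earlier results of these data known. Up to 4 genes per list and comparison were named, by size of change among called genes with a mean of at least 1 CPM.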

Additional observations from a re-analysis of the deposited data

How the results depend on the processing

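No called fold change of a clock gene changed sign under these alternatives. Under the alternatives 774 member values kept their side of the threshold, 46 lost a call and 8 gained one. In MT+FAC against Lip-1+FAC the 0 members called became 2 with no filter on low counts, 1 with the stranded columns summed, 2 with DESeq2 and 1 with only the compared libraries, and over all genes the 182 calls became 477, 462 with DESeq2 and 312 with only the compared libraries. Leaving out a library gave 4 to 5 members in FAC against control, 6 to 7 in Lip-1+FAC against FAC, 4 to 5 in MT+FAC against FAC, 0 in MT+FAC against Lip-1+FAC (and 74 to 86 genes without Lip-1+FAC replicate 1 or 2 or MT+FAC replicate 2 or 3), 4 to 6 in Lip-1+FAC against control and 2 to 6 in MT+FAC against control. The cause of these shifts was not tested. With the replicate number as a block, 5, 7, 6, 1, 5 and 5 members were called in these 6 comparisons in the order given. The block ended the edgeR calls of Per3 in Lip-1+FAC against FAC (adjusted p = 0.0746) and of Per1 and Dbp in Lip-1+FAC against control (0.0638 and 0.0547), and Nr1d2 was called with it in MT+FAC against Lip-1+FAC (0.0474). The 18 pairs of same-numbered libraries had correlations of deviations from -0.249 to 0.164, so that the numbers were not taken to pair samples, and libraries matched their own number best in 14 of 36 cases. Per3 and Dbp had no value with a mean CPM of at least 5. Dbp had 8 to 49 unstranded counts a library and 23 to 136 with the strand columns added, and its level in control moved from 0.72 to 2.16 CPM.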

Other observations

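Enzymes that modify clock proteins were called in both directions. Of 19 kinases, phosphatases and ubiquitin ligases, 6 rose and 3 fell in FAC against control (median log2 fold change 0.05), where the casein kinase gene Csnk1e rose by 0.76 (SE 0.0831) and the deubiquitinase gene Usp2 changed by -1.54 (SE 0.155). The share called was 47.4%, beside 36.6% of all genes tested. In Lip-1+FAC against FAC 4 rose and 4 fell, a share of 42.1% that is close to the 39.9% of all genes, with Usp2 at 0.59 (SE 0.159) and Csnk1e at -0.31 (SE 0.0816). Of 16 cofactors, 6 rose and 3 fell in FAC, with the deacetylase gene Sirt1 at 0.84 (SE 0.138) and the coactivator gene Ppargc1a at -0.55 (SE 0.132). In Lip-1+FAC against FAC 5 of the cofactors rose and 3 fell, a share of 50% after 56.2% in FAC against control, with Ppargc1a at 0.59 (SE 0.132) and Sirt1 at -0.52 (SE 0.136). Among these genes the highest edgeR adjusted p was 0.00669.

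Per1 and Dbp were the members whose group means spanned at least 1 on the log2 scale. Over the 12 libraries, and among genes with a mean of at least 5 CPM, the genes nearest to Per1 in centred log2 CPM were Col12a1, Shroom3 and Vat1, at root mean square distances of 0.159, 0.163 and 0.178. Those nearest to Dbp were Fbxo44, Pcbp3 and Pim3, at 0.203, 0.208 and 0.212. Dbp itself lay far below the limit of 5 CPM set for its neighbours, with 8 to 49 unstranded counts a library. Log2 CPM was taken here with a prior count of 2, which flattens differences at such counts, so that its neighbours are less certain than those of Per1.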
